A study of Rattus norvegicus with 6 samples.

Results

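The matrix metalloproteinases (MMPs) and tissue inhibitors of metalloproteinases (TIMPs) described here are 10 genes, chosen by gene name among the 34156 genes of the deposited count table. They are 6 proteinases (Mmp2, Mmp3, Mmp9, Mmp10, Mmp13 and Mmp14) and the 4 inhibitors (Timp1, Timp2, Timp3 and Timp4). Their mRNA was measured by poly(A)-selected RNA-seq in rat RA-FLS, which are fibroblast-like synoviocytes, the connective tissue cells of the joint lining, obtained from a cell supplier as a model of rheumatoid arthritis (RA). The 3 libraries of the TNF-α group came from cells given 10 ng/mL TNF-α, and the 3 libraries of the TNF-α+EMO group from cells given the same TNF-α with 80 μmol/L emodin (EMO), an anthraquinone found in rhubarb. All 6 libraries are labelled wild type, with rheumatoid arthritis as the disease state, and day 5, whereas the methods of the study give a shorter incubation. Both groups received TNF-α, so the comparison is of EMO with TNF-α against TNF-α without EMO, and an untreated group was not analysed here. The animal and sex behind the cells are not given in the sources used here, and the methods describe the 3 libraries of each group as biological replicates.

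MMPs are zinc-dependent proteinases that cut collagen, proteoglycans and other matrix proteins, and most are secreted as inactive precursors that other proteinases activate. TIMPs bind the active site of these enzymes and block it, and TIMP2 also takes part in activating pro-MMP2 at the cell surface together with MMP14. In the rheumatoid joint, synovial fibroblasts are a main source of MMPs, and inflammatory cytokines such as TNF-α are known to raise the expression of several of them.

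The libraries held 16813322 to 16982023 counts on genes in the TNF-α group and 17185322 to 17794455 in the TNF-α+EMO group. Normalized counts are counts scaled by edgeR's TMM factors to a common library size, and a log2 fold change is that of TNF-α+EMO over TNF-α, given with its standard error (SE). The 13614 genes tested had 10 counts or more in 3 libraries or more. Of these, 80.9% passed an adjusted p of 0.05 by edgeR's quasi-likelihood test, 41.4% lower and 39.4% higher with EMO, so passing this test alone does not set a gene apart. A DEG also had an absolute log2 fold change over 1, which 47.3% of the tested genes met, 27.8% lower and 19.5% higher. The labelled cell type was checked against 11 fibroblast markers. In the TNF-α libraries the summed level of these markers, in TMM-scaled CPM (counts scaled to a common total) and per kilobase of gene length, was 3340 to 3554, and Col1a1, type I collagen, stood at 111181 ± 9932 normalized counts (SD, n = 3). Also detected there were Col3a1 at 11635 ± 269 normalized counts, Pdgfrb at 3035 ± 141, Cdh11, a synovial fibroblast cadherin, at 2968 ± 113 and Lum at 242 ± 13.4. Other markers of synovial fibroblasts had few counts even there, with Thy1 at 5.21 ± 2.05 normalized counts, Prg4 at 3.58 ± 0.569 and Pdpn at 0.327 ± 0.566. With EMO the summed level of the fibroblast markers was 1014 to 1096, and nearly all of it came from Vim, vimentin. Vim went from 61464 ± 1350 normalized counts with TNF-α to 32387 ± 1299 with EMO. The others fell further, with Col1a1 at 3709 ± 46.0 normalized counts with EMO, Pdgfrb at 139 ± 3.41, Cdh11 at 40.3 ± 6.69 and Col3a1 at 26.7 ± 6.88. Lum, Thy1 and Prg4 had 0 counts with EMO, and 7 of the 8 tested markers passed as lower. The higher one was Dcn, a small proteoglycan, at 1.62 ± 2.03 normalized counts with TNF-α and 28.4 ± 5.01 with EMO. The summed level of 9 macrophage and lymphocyte markers was 43.2 to 46.3 with TNF-α and 28.6 to 30.9 with EMO, and 5 of the 9, Ptprc and Cd3e among them, had at most 3 counts in every library. Itgam, an integrin chain of myeloid cells, was at least 4.19-fold higher with EMO, at 0.327 ± 0.566 and 12.3 ± 2.02 normalized counts. Cd14, which had the most counts of the 9, fell and Cd68 rose, so the lower sum does not hold for each marker. TNF-α+EMO replicate 3 stood apart from its group, with a chi-square statistic per gene of 23.5 and 15.1 against the other EMO libraries, where the other pairs within a group had 4.62 to 6.27. Mitochondrial mRNAs took 3.33% to 3.55% of the counts with TNF-α and 0.191% to 0.214% with EMO. The marker and mitochondrial values moved with the groups, and their part in the results was not tested. Whether both groups held the same cells cannot be told from these counts. The p-values measure the spread between these libraries only. In bulk RNA, fewer cells of a type and less RNA per cell cannot be told apart.

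Of the 10 genes, 9 had enough counts to test, and the inhibitors were lower with EMO while the proteinases were divided. Timp1, Timp2 and Timp3 all fell, Mmp9 fell the most of the 10 genes and Mmp14 fell with it, Mmp3 fell slightly, Mmp13 rose, and Mmp2 and Mmp10 did not pass the test. In counts, 6 of the 9 tested genes were lower and 1 higher at an adjusted p under 0.05 (edgeR), a total of 7 against a background of 80.9%. As DEGs, 5 were lower, against 27.8% of all tested genes, and 1 higher, against 19.5%. The groups did not overlap in 7 of the 9, against 82.9% of all tested genes. Their median log2 fold change was -1.05, where that of all tested genes was -0.01. For the proteinases alone the median was -0.26 over 6 genes, and for the inhibitors -2.73 over the 3 tested.

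**Figure D1:**
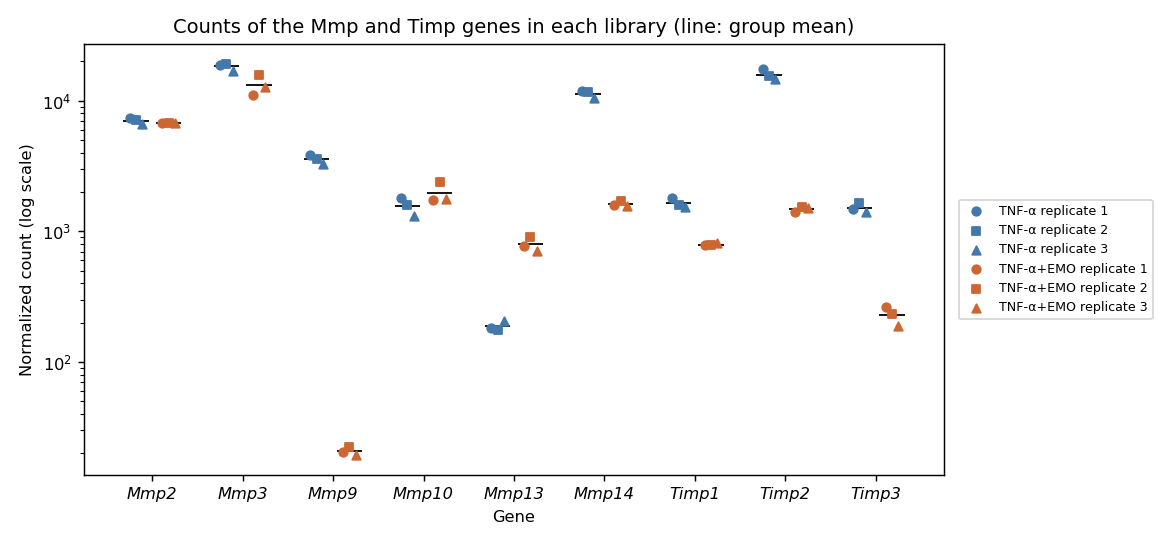
Normalized counts (log scale) of the 9 tested genes in each library, with TNF-α in blue, TNF-α+EMO in orange, a marker shape per replicate and a black line at the group mean. The groups overlap in Mmp2 and Mmp10 and lie apart in the other 7 genes, with Mmp13 alone higher with EMO.

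The stromelysins Mmp3 and Mmp10 are closely related secreted enzymes that cut proteoglycans and fibronectin and activate other pro-MMPs. Mmp3 (ENSRNOG00000032626, chromosome 8, 5676665 to 5698579 on the plus strand in the deposited Rnor_6.0 coordinates) had 18853, 19214 and 16994 normalized counts in TNF-α replicates 1 to 3, and 11025, 15806 and 12705 with EMO. All 3 TNF-α values lay above all 3 TNF-α+EMO values, although replicate 2 with EMO came close to the lowest TNF-α library. The log2 fold change was -0.48 ± 0.12 (SE), adjusted p = 0.00654 by edgeR, or 0.718 of the TNF-α level, and without TNF-α+EMO replicate 3 it was -0.46 with an adjusted p of 0.113 (edgeR), which does not pass, the highest of a range over alternatives that began at 3.78e-05. Mmp10 (ENSRNOG00000032832, chromosome 8, 5734348 to 5742243) had 1802, 1579.8 and 1320.0 normalized counts with TNF-α and 1733, 2401 and 1768 with EMO. Its groups overlapped, and 2 of the EMO libraries lay below TNF-α replicate 1. The log2 fold change was 0.33 ± 0.16 (SE), adjusted p = 0.0896 by edgeR, which does not pass, but it passed with DESeq2 (0.32, adjusted p = 0.0323) and without TNF-α replicate 1 (0.44, adjusted p = 0.0326, edgeR), in a range over all alternatives of 0.0323 to 0.253. Leaving out a library moved its log2 fold change between 0.15, without TNF-α+EMO replicate 2, and 0.44. Within each library Mmp3 exceeded Mmp10 per kilobase of gene length by 10.4, 12.1 and 12.8 times with TNF-α and by 6.34, 6.57 and 7.16 times with EMO. This ratio does not depend on how libraries are scaled, and its values in the groups did not overlap. How the counting treated reads that fit both genes is not given in the sources used here, so a part of the reads of either could belong to the other.

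Mmp13, the collagenase that cuts fibrillar collagen and is known for its part in cartilage breakdown, was the 1 gene that rose. Mmp13 (ENSRNOG00000008478, chromosome 8, 5522739 to 5533018) had 182, 175 and 205 normalized counts with TNF-α and 779, 906 and 709.98 with EMO. Every EMO library was above every TNF-α library by a wide margin. The mean went from 187 ± 15.6 to 798 ± 99.2 (SD, n = 3 each), 4.26-fold higher, with a log2 fold change of 2.09 ± 0.11 (SE), adjusted p = 1.92e-08 by edgeR.

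The gelatinases, which cut denatured collagen and basement membrane collagen, went separate ways. Mmp9 (ENSRNOG00000017539, chromosome 3, 161413298 to 161421520) had 3840.1, 3555 and 3268 normalized counts with TNF-α and 20.6, 22.5 and 19.4 with EMO. No other of the 10 genes differed as much between the groups, and with 19 to 22 raw counts the EMO libraries were above the floor of 3 counts. That is a log2 fold change of -7.41 ± 0.11 (SE), adjusted p = 2.47e-12 by edgeR, 169.6-fold lower. Mmp2 (ENSRNOG00000016695, chromosome 19, 15542765 to 15570611) had 7320.3, 7090.4 and 6613 normalized counts with TNF-α and 6787, 6782 and 6719.8 with EMO. The EMO values lay inside the range of the TNF-α values. Its log2 fold change was -0.05 ± 0.06 (SE), adjusted p = 0.427 by edgeR. Scaling by library totals, which moves the median of all genes to -0.125, gave -0.16 (adjusted p = 0.022, edgeR), close to that shift.

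Mmp14, or MT1-MMP, is anchored in the plasma membrane, where it cuts collagen and activates pro-MMP2. Mmp14 (ENSRNOG00000010947, chromosome 15, 33074441 to 33083655) had 11783, 11545 and 10469 normalized counts with TNF-α and 1582, 1703 and 1569.7 with EMO. The groups lay far apart, and the values within each were close. It fell 6.96-fold, a log2 fold change of -2.80 ± 0.07 (SE), adjusted p = 4.68e-11 by edgeR. Relative to Mmp14, the Mmp2 mRNA level per kilobase was 0.493, 0.487 and 0.501 in TNF-α replicates 1 to 3, and 3.40, 3.16 and 3.40 in those with EMO.

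Among the inhibitors, Timp2 had the highest counts and the largest fall. Timp2 (ENSRNOG00000003148, chromosome 10, 107338465 to 107386072 on the minus strand), the inhibitor that also joins Mmp14 and pro-MMP2 at the cell surface, had 17475, 15342 and 14575 normalized counts with TNF-α and 1410.0, 1544 and 1509.6 with EMO. All EMO libraries were far below all TNF-α libraries. The log2 fold change was -3.41 ± 0.08 (SE), adjusted p = 3.75e-11 by edgeR, 10.6-fold lower. Timp3 (ENSRNOG00000004303, chromosome 7, 23544215 to 23594133), which binds the extracellular matrix and also inhibits ADAM and ADAMTS proteinases, had 1477, 1655 and 1398 normalized counts with TNF-α and 262, 231 and 188 with EMO. Here too the groups lay apart, and replicate 3 was the lowest library of each. Timp3 fell 6.64-fold, a log2 fold change of -2.73 ± 0.12 (SE), adjusted p = 3.56e-09 by edgeR. Timp1 (ENSRNOG00000010208, chromosome X, 1364786 to 1369384), a secreted inhibitor that cytokines induce in many cells, had 1784, 1601 and 1529 normalized counts with TNF-α and 779.8, 781 and 809 with EMO. The 3 EMO values were nearly equal, and all were below the TNF-α values. Its log2 fold change was -1.05 ± 0.08 (SE), adjusted p = 2e-07 by edgeR, 2.07-fold lower. Timp1 stood at the edge of the DEG threshold, and without TNF-α replicate 1 its log2 fold change was -0.99. Timp4 (ENSRNOG00000007955, chromosome 4, 147156948 to 147163467) had 0 counts in each of the 6 libraries, which allows up to 3 counts in a library, or 0.169 to 0.178 CPM. It was not detectable at this depth and was not tested.

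All 4 Timp genes share their locus with another listed gene, whereas the 6 MMP genes overlap none. Timp1, Timp3 and Timp4 lie on the opposite strand within the synapsin genes Syn1, Syn3 and Syn2, and the strand setting of the counting is not given in the sources used here. Syn1 had 0 to 4 counts, Syn3 1 to 31 and Syn2 0 in every library, low beside Timp1 and Timp3. Cep295nl, on the same strand as Timp2 and within it, had 4 to 35 counts.

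**Figure D2:**
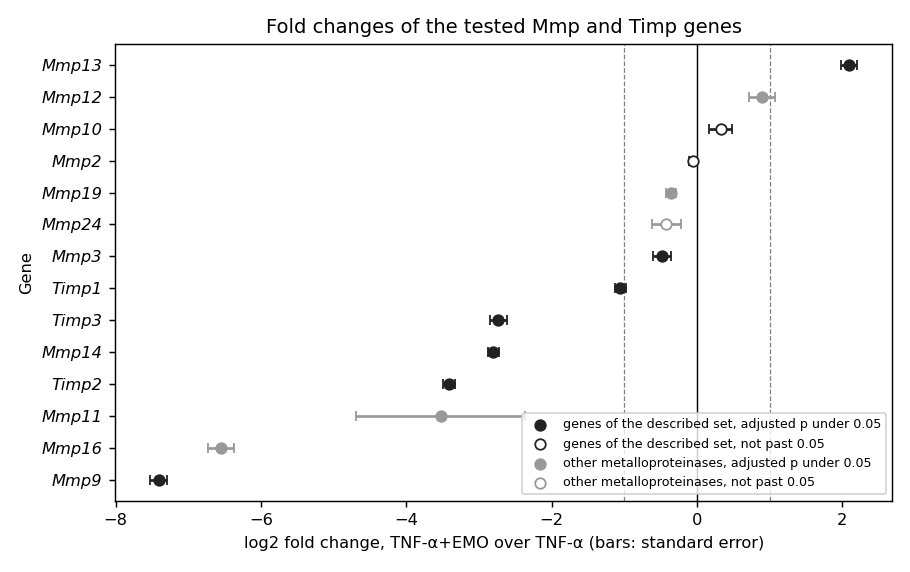
Log2 fold change (TNF-α+EMO over TNF-α, with its standard error) of the 9 tested genes in black and of 5 other tested metalloproteinases in grey, filled where the adjusted p was under 0.05, with dashed lines at an absolute log2 fold change of 1. The values run from -7.41 for Mmp9 to 2.09 for Mmp13.

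Compared per kilobase of gene length, the most abundant of these mRNAs in the TNF-α group was Mmp3, at 625 ± 40.6 TMM-scaled CPM per kilobase (SD, n = 3), followed by Timp2 at 554 ± 52.7, and their ranges overlapped. Mmp14 at 269 ± 16.7 came next, clear of its neighbours. Mmp2 at 133 ± 6.84 and Timp1 at 129 ± 10.3 overlapped, as did Mmp9 at 65.7 ± 5.28, Mmp10 at 53.6 ± 8.24 and Timp3 at 50.3 ± 4.38, each with the next in the order. Mmp13 was far lower, at 4.19 ± 0.348. With EMO the order was different. Mmp3 still led, at 449 ± 82.7 CPM per kilobase, but Mmp2 followed at 128 ± 0.709 and Mmp10 at 67.2 ± 12.8. Timp1 at 62.1 ± 1.30, which overlapped with Mmp10, now exceeded Timp2 at 52.1 ± 2.44 with no overlap. Mmp14 at 38.7 ± 1.75 and Mmp13 at 17.9 ± 2.22 came after them, then Timp3 at 7.57 ± 1.23 and Mmp9 at 0.385 ± 0.0294. In this order Mmp10 and Timp1 were the only neighbours whose ranges overlapped.

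Summed over the 6 proteinases, the level was 1199, 1189 and 1065 CPM per kilobase in TNF-α replicates 1 to 3, and 619, 811 and 675 in those with EMO. For the inhibitors the sums were 802, 719 and 678 with TNF-α and 119, 123 and 123 with EMO. The inhibitor sum thus fell further than the proteinase sum, and the ratio of MMP to TIMP mRNA was 1.496, 1.65 and 1.57 in TNF-α replicates 1 to 3, and 5.18, 6.58 and 5.49 in those with EMO. No test was made of this score, as its members were chosen with results known, and mRNA sums do not give amounts of active enzyme. Mmp3 made up 53.6% to 55.1% of the proteinase sum with TNF-α and 60.7% to 66.5% with EMO, and Mmp14 went from 23.2% to 23.5% down to 5.02% to 6.10%. Without Mmp3 the ratio was 0.694 to 0.743 with TNF-α and 1.97 to 2.21 with EMO, and again the groups did not overlap. Timp2 made up 74.8% to 76.4% of the inhibitor sum with TNF-α and 41.4% to 43.9% with EMO, where Timp1 took 49.8% to 51.8%.

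**Figure D3:**
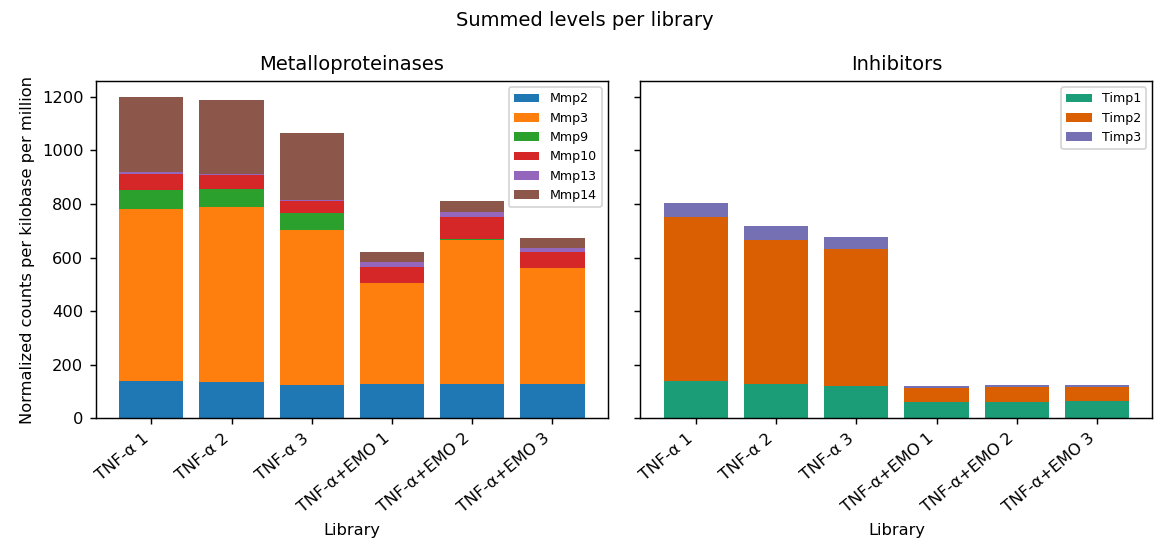
Stacked levels, in CPM per kilobase, of the 6 proteinases (left) and of Timp1, Timp2 and Timp3 (right) in each of the 6 libraries. The inhibitor bars fall from between 678 and 802 with TNF-α to between 119 and 123 with EMO, and the proteinase bars from between 1065 and 1199 to between 619 and 811.

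Mmp3, Mmp10 and Mmp13 are neighbours in the genome. In the deposited coordinates 10 Mmp genes lie on chromosome 8 between 5522739 and 5901049, a span of 378.3 kb, in a stretch of 18 listed genes whose starts are within 500 kb of that of Mmp3. Of these 10, only Mmp13, Mmp12, Mmp3 and Mmp10 had enough counts to test, and the other 6 (Mmp1b, Mmp1, Mmp8, Mmp27, Mmp20 and Mmp7) had at most 8 counts in any library. Mmp12, the macrophage elastase, went from 64.7, 64.4 and 58.5 normalized counts with TNF-α to 112, 124 and 114 with EMO, with no overlap. Its log2 fold change was 0.90 ± 0.18 (SE), adjusted p = 7.34e-04 by edgeR, so that Mmp12 and Mmp13 rose, Mmp3 fell and Mmp10 did not pass. In all 4 the highest EMO library was replicate 2. The genes on both flanks were mixed as well. Dcun1d5 (log2 fold change 0.95 ± 0.07) and Birc2, an inhibitor of apoptosis (0.95 ± 0.07), rose, and Dync2h1 (-1.22 ± 0.15), Tmem123 (-0.47 ± 0.10), Birc3 (-1.003 ± 0.07) and Yap1, an effector of the Hippo pathway (-1.22 ± 0.07), fell, with adjusted p-values from 1.57e-08 to 0.00174 (edgeR). Across the stretch, 4 of the 10 tested genes were higher, 5 lower and 1 did not pass, against backgrounds of 39.4% and 41.4%.

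**Figure D4:**
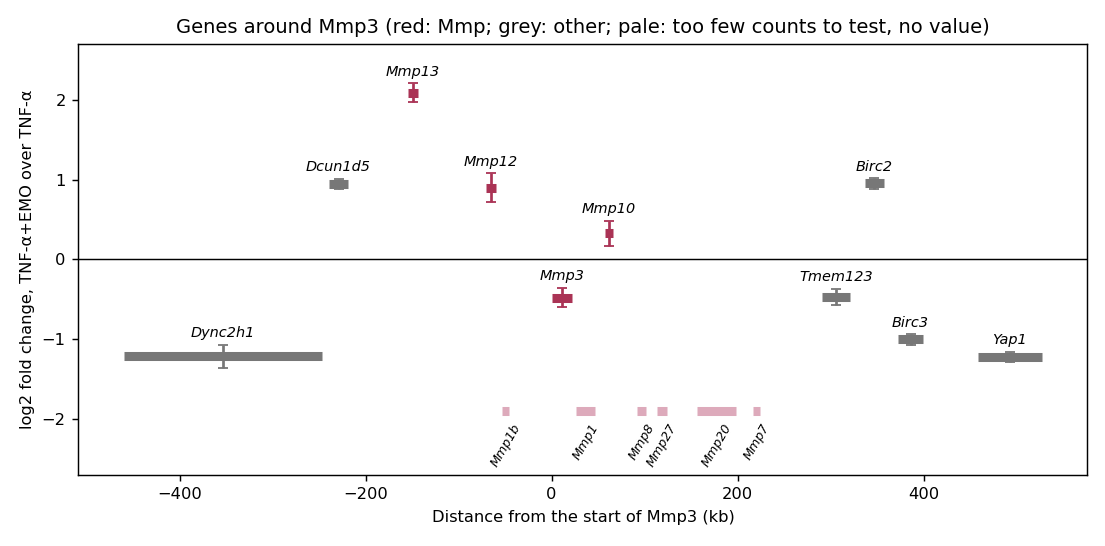
Log2 fold change (TNF-α+EMO over TNF-α, with its standard error) of the 10 tested genes around Mmp3 against their distance in kb from its start, with Mmp genes in red and other genes in grey. Pale bars at the bottom mark the 6 Mmp genes with too few counts, which have no value, and Mmp13 stands highest at 2.09.

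MMP promoters of this locus are known for an AP-1 element, the binding site of Fos and Jun proteins, close to the start of transcription. RefSeq promoters of the GRCr8 build, from 250 bases before to 50 after the start, were found for 7 of the 10 genes, and those of Mmp2, Mmp9 and Mmp14 were not analysed here. An AP-1 site was searched as TGACTCA, or TGAGTCA as its other strand, and a TATA box as TATAAA on either strand. AP-1 letters were found in 3 of the 7, Mmp3, Mmp10 and Mmp13, and in none of the 4 Timp promoters, while 4.63% of all 33469 promoters hold them. The TATA box letters were in the same 3 promoters, against 14.2% of all, and the ETS letters AGGAAG, on either strand, were in Mmp3, Mmp13, Timp1 and Timp4, against 34.5% of all. The 110 bases before the start of those 3 genes, all on the plus strand of chromosome 8 (chr8:12925171-12925280 for Mmp3, chr8:12974597-12974706 for Mmp10 and chr8:12782719-12782828 for Mmp13), are shown because these letters set them apart from the Timp promoters, with the AP-1 and TATA box letters in capitals:
Mmp3: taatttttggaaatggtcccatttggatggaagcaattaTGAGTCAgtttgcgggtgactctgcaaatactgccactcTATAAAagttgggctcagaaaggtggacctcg
Mmp10: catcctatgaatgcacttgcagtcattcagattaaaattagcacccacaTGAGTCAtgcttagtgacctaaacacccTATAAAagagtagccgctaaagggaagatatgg
Mmp13: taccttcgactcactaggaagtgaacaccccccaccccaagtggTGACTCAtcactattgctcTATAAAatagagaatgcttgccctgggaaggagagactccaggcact
The first AP-1 base is at -71 from the start in Mmp3, at -61 in Mmp10 and at -66 in Mmp13. Of the 10 Mmp promoters of the locus, 6 hold AP-1 letters, including that of Mmp12, at -87, and those of Mmp1 and Mmp7, whose counts were too low to test. The same letters thus precede Mmp12 and Mmp13, which rose, Mmp3, which fell, Mmp10, which did not pass, and the barely detected Mmp1 and Mmp7. Their part in these values was not tested. A match describes the letters only and is no evidence of binding.

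Of 15 transcription factors known to act on MMP promoters, 14 were tested, and 7 were lower and 3 higher at an adjusted p under 0.05, where 41.4% and 39.4% of all tested genes were. As DEGs, 4 were lower and 3 higher, near the backgrounds of 27.8% and 19.5%. The 3 that rose all form AP-1. Jund had the largest log2 fold change at 2.50 ± 0.14 (SE), followed by Fosl1 at 2.40 ± 0.10 and Jun at 1.92 ± 0.08, with adjusted p-values of 6.76e-07, 2.03e-09 and 2.22e-09 by edgeR. Fos, at 44.6 ± 6.16 normalized counts with TNF-α and 3.75 ± 2.56 with EMO (SD, n = 3 each), fell, and Fosb, Fosl2 and Junb did not pass. Of the other families, Etv4 and Ets2, which bind ETS sites, fell, with log2 fold changes of -4.81 ± 0.14 and -1.68 ± 0.06, and so did Runx2, which acts on Mmp13 in bone and cartilage, with -2.07 ± 0.10.

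For each tested gene, the closest expression profile among 9418 genes was the one with the smallest root mean square difference of centred log2 normalized counts over the 6 libraries. Timp1 was closest to Pkdcc (0.015), Mmp2 to Chd2 (0.026), Mmp14 to Piezo1 (0.039), Mmp3 to Zfp821 (0.043) and Timp2 to Fbln1 (0.046). Larger differences remained for Timp3 to Cdk14 (0.071), Mmp13 to Thnsl1 (0.086), Mmp10 to Nkiras1 (0.098) and Mmp9 to Synpo (0.107). With only 2 groups, many genes of a similar fold change come close, and these names describe the 6 libraries only. None of the 9 had another MMP or TIMP gene as its closest.

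Beyond the 10 genes, 16 further MMP genes were listed, of which 5 had enough counts to test. Mmp16, another membrane-anchored enzyme, fell from 648.8 ± 17.96 to 6.82 ± 2.56 (normalized counts, SD), which is a log2 fold change of -6.54 ± 0.18 (SE), adjusted p = 8.74e-11 by edgeR. Mmp19 fell less, with -0.35 ± 0.07 (SE; adjusted p = 8.98e-04, edgeR), and Mmp12 rose as given above. The other tested genes, Mmp11 and Mmp24, were named after their values were seen. Mmp11 had 159.9, 21.5 and 141 normalized counts with TNF-α and 0, 11.3 and 16.3 with EMO. Its TNF-α libraries were far from each other, and its log2 fold change was -3.53 ± 1.16 (SE), adjusted p = 0.0368 by edgeR. Only 1 lower DEG was found among these MMPs in 5 of the 6 fits that left out a library, all but that without TNF-α replicate 2. Mmp24 had a log2 fold change of -0.42 ± 0.20 (SE), adjusted p = 0.0715 by edgeR. In the 11 untested genes, the counts were too low for a comparison, and 5 of the 11 had at most 3 counts in every library. Another 5 had more than 3 counts in a TNF-α library or more, but in no library with EMO, and Mmp1b had so in both groups.

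The other inhibitors fell with the TIMPs. Of 5 listed, 3 were tested, and all 3 were lower DEGs, against 27.8% of all tested genes. Reck, a membrane protein that restrains MMP14 and other MMPs, went from 1338 ± 30.1 to 179 ± 17.7 normalized counts (log2 fold change -2.90 ± 0.09, adjusted p = 2.76e-10, edgeR). Serpine2, which inhibits plasminogen activators and thrombin, had a log2 fold change of -3.91 ± 0.07 (adjusted p = 7.78e-12, edgeR). Of the activators, 3 of 6 tested genes were lower and 3 higher, near the split of all tested genes (41.4% and 39.4%). Plat, the tissue plasminogen activator, fell, with a log2 fold change of -2.24 ± 0.16, and so did Furin, which cleaves the propeptide of pro-MMP14, with -1.65 ± 0.06. Higher were Plaur, the urokinase receptor (1.20 ± 0.16), Pcsk6, a convertase related to furin (1.07 ± 0.16), and Bsg, a surface inducer of MMPs (0.43 ± 0.12), the largest adjusted p among them being 0.00768 (edgeR). Of 4 surface partners, Lrp1, which clears MMPs and TIMPs from the medium, fell from 33784 ± 3308 to 3614 ± 77.7 normalized counts (log2 fold change -3.22 ± 0.08), and Cd63, a tetraspanin that binds TIMP1, rose from 9181 ± 456 to 25794 ± 3668 (1.49 ± 0.09). The integrin chain Itgb1 fell slightly (-0.31 ± 0.06) and Cd44 did not pass (-0.05, adjusted p = 0.531, edgeR).

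ADAM and ADAMTS proteinases, relatives of the MMPs of which TIMP3 inhibits several, were mostly lower. Of 10 listed, 9 were tested, and 8 were lower and 1 higher DEGs, against 27.8% and 19.5% of all tested genes, with a median log2 fold change of -1.87. The largest falls were those of Adam12 (log2 fold change -6.72 ± 0.31), Adamts4, an aggrecanase (-5.96 ± 0.19), and Adamts1 (-3.35 ± 0.09), while Adam8 rose from 14.6 ± 1.66 to 81.9 ± 15.6 normalized counts. Of 15 matrix substrates of MMPs, 12 were tested, and 11 were lower and 1 higher DEGs, against the same backgrounds, with a median log2 fold change of -3.87. Col3a1, type III collagen, fell the most (-8.76 ± 0.12), before Fn1, fibronectin (-5.81 ± 0.08), and Col4a1, a basement membrane collagen (-5.16 ± 0.09), and the higher one was Dcn. The median of the 10 genes' tested members, -1.05, lay between those of the activators (-0.40) and of the substrates. These medians stand beside -0.01 for all tested genes, and the median of the fibroblast markers, which share Col1a1, Col3a1 and Dcn with the substrates, was -5.55.

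**Figure D5:**
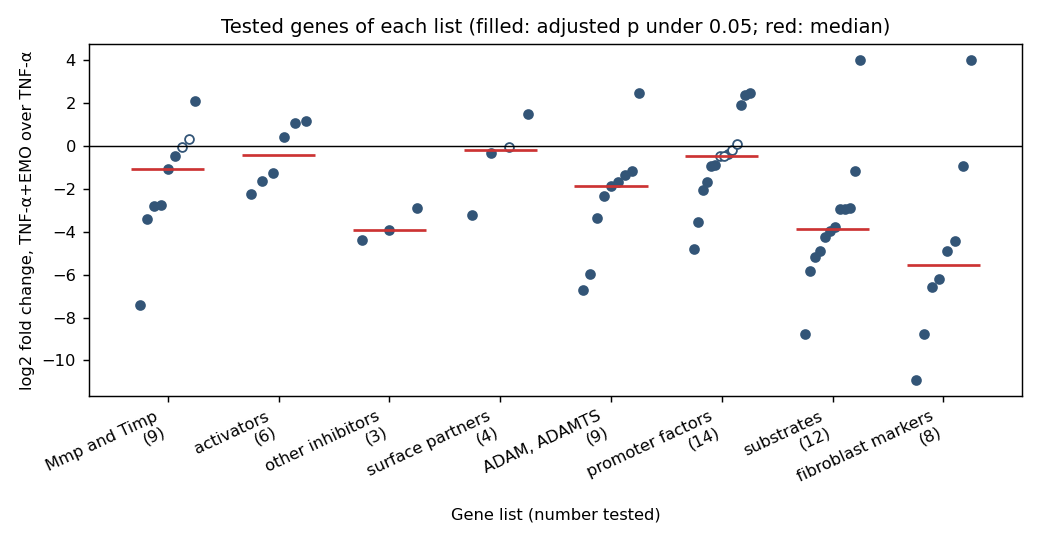
Log2 fold changes (TNF-α+EMO over TNF-α) of the tested genes of each list, filled where the adjusted p was under 0.05, with the median of the list in red and the number tested in brackets. The lowest point of the fibroblast markers is Lum, which had 0 counts with EMO and was at least 78.6-fold lower, so its plotted value is no measure of size.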

How the data were processed

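The authors deposited raw counts per gene and library, without normalization, and FPKM values, which scale fragments by gene length and mapped reads. Per the study's methods, reads were cleaned and aligned with HISAT2, and the submitters' processing notes name FastQC, Trimmomatic and Rnor_6.0. The counting program, annotation and strand setting are not given in the sources used here. The authors' own comparison columns (group means, fold changes, p-values) were not used.

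Genes that reached 10 counts in 3 or more libraries were tested on the deposited counts with edgeR 4.0.16 in R 4.3.3 (TMM, robust quasi-likelihood F test), adjusting p for all 13614 genes by Benjamini-Hochberg. The standard error is the log2 fold change divided by the square root of F. The common biological coefficient of variation was 0.121. DESeq2 1.42.0 was an alternative, beside other scalings, filters, fold change thresholds, the replicate block and leaving out each library. Levels per kilobase used TMM-scaled counts and the deposited gene length, with the deposited FPKM as an alternative. The floor is 3 counts per library and covers counting error only.

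With 3 libraries against 3, p-values rest on the spread that edgeR shares across genes. The members and lists were chosen with earlier results of these data known. Named from each other list were up to 3 genes with the largest rise and 3 with the largest fall among those past the test with a mean of at least 100 counts. All members and every tested gene around Mmp3 were named, and genes outside this rule (Fos, Fosb, Fosl2, Junb, Adam8, Cd44, Dcn, Vim, Cdh11, Pdgfrb, Itgam and the near-absent markers among them) after their values were seen. The lists were other MMPs, activators, inhibitors, surface partners, ADAM and ADAMTS genes, transcription factors, substrates, and markers of fibroblasts, macrophages and lymphocytes, endothelium, epithelium, mural cells and chondrocytes. Listed genes Mmp1a, Mmp25, Col1a2 and Pecam1 were not analysed here, and the values of 1 gene that the rule names are not reported here. Promoter sequences are from RefSeq, and protein sequences were not used here.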

Additional observations from a re-analysis of the deposited data

How the results depend on the processing

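Over 14 alternatives for each of the 9 tested genes, 121 results kept their direction and their side of the threshold, 4 came to pass, 1 no longer passed, and 0 changed direction. Mmp9, Mmp13, Mmp14, Timp2 and Timp3 were DEGs under all 14 and Timp1 under 13. The exceptions were Mmp2 with library totals, Mmp3 without TNF-α+EMO replicate 3, and Mmp10 with DESeq2, with the replicate block and without TNF-α replicate 1. With the block Mmp10 had a log2 fold change of 0.32 (adjusted p = 0.0352, edgeR). The other values stand in the report, and the cause was not tested. Genes passing as higher were therefore 2 with DESeq2 and 2 with the replicate block in place of 1, and 1 to 2 when a library was left out. The block, under which 3775 lower and 2646 higher DEGs were found among all genes in place of 3783 and 2659, also left 1 lower DEG among the other MMPs and changed no other count of DEGs past 1.5 times. The numbers do not pair the libraries, as deviations from the group means correlated at 0.009, -0.007 and 0.0788 between libraries of the same number, and not every library correlated best with its own number.

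An absolute log2 fold change over 2 left 2255 lower and 809 higher DEGs among all genes, 1 lower and 0 higher activators, 0 higher surface partners, 4 lower ADAM and ADAMTS genes and 0 lower macrophage markers. Leaving out a library gave 1 to 2 lower DEGs among the other MMPs and 1 to 2 higher among the activators. With library totals there was 1 higher activator, and the TIMP sum with EMO was 117 in place of 122 CPM per kilobase. Without a filter on low counts the other MMPs held 5 lower DEGs, the substrates 2 higher, the epithelial markers 3 lower and the chondrocyte markers 3 lower and 1 higher. At a minimum of 50 counts the other MMPs held 1 lower DEG, and the substrates, fibroblast markers and macrophage markers 0 higher. The ratio of MMP to TIMP sums within a library cannot change with the scaling or with the deposited FPKM, as these divide the same counts by the same gene length.

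Depth limits Timp4 and 11 further MMP genes, which were too low to compare.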

Other observations

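The summed levels of the markers of other cell types were lower with EMO, and their part in the MMP and TIMP results was not tested. The summed level of 7 epithelial markers was 297 to 323 TMM-scaled CPM per kilobase with TNF-α and 58.7 to 68.8 with EMO, nearly all of it Krt8, a keratin of simple epithelia, which fell (log2 fold change -2.28 ± 0.07, SE, edgeR), while Epcam and Krt5 had 0 counts in every library. The 6 mural cell markers summed to 23.95 to 25.8 and 1.43 to 1.88, with Acta2, smooth muscle actin, at least 149-fold lower with EMO and Myh11, smooth muscle myosin, also lower (-4.77 ± 0.18). The 6 chondrocyte markers summed to 8.17 to 9.80 and 0.172 to 0.192, with TNF-α mainly through Sox9, a cartilage transcription factor, at 487 ± 46.0 and 4.10 ± 2.72 normalized counts (SD, n = 3 each). The 5 endothelial markers were close to absent in both groups, at 0.572 to 0.668 and 0.211 to 0.246, with Kdr at 0 counts in every library and Vwf the 1 tested gene, which fell (-3.55 ± 0.46). Of the macrophage markers, 3 were tested, and 1 was lower and 2 higher, where 41.4% and 39.4% of all tested genes were. Cd14, which had the most counts of them, fell from 1093 ± 57.8 to 510 ± 41.2 normalized counts (-1.10 ± 0.09). Cd68 rose from 153 ± 14.7 to 256 ± 11.3 (0.75 ± 0.13), and Itgam rose as given above. The lower sum of this list therefore does not hold for each of its markers.

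Mmp14 and Timp2, whose proteins act together on pro-MMP2, fell unequally. Mmp14 mRNA per kilobase was 0.460, 0.513 and 0.490 times that of Timp2 in TNF-α replicates 1 to 3, and 0.765, 0.752 and 0.709 times with EMO. For Mmp2 the same ratio to Timp2 was 0.227, 0.250 and 0.245 with TNF-α and 2.60, 2.38 and 2.41 with EMO. Neither ratio depends on the scaling of libraries, and in both the groups did not overlap. These pairs were chosen after their values were seen, so no test was made.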
